A study of Mus musculus with 6 samples.

Results

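The integrin genes and a set of focal adhesion genes were examined in mouse cells stimulated with IL-1β, with and without an inhibitor of the actin-bundling protein FSCN1. Members were chosen by name, as every listed gene symbol of an integrin α or β chain that the pattern Itga or Itgb plus a number (or v for Itgav) matches, together with 29 hand-listed focal adhesion proteins. This gave 50 of the 16880 genes listed, namely 13 integrin α genes, 8 integrin β genes and 29 other genes. Of these, 42 had enough reads to be tested, and the other 8, all integrin genes, were not tested.

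RNA was sequenced from 3 libraries of cells given the inflammatory cytokine IL-1β (IL) and 3 of cells given IL-1β together with the small molecule FSCN1 inhibitor NP-G2-044 (ILN). IL-1β was used at 10 ng/mL and the inhibitor at 10 μmol/L, for 24 h according to the methods. The labels name ATDC5, a murine chondrogenic cell line, whereas the methods describe primary chondrocytes, and the treatment label of the ILN samples reads NP-G2-047 where their titles read NP-G2-044. IL-1β was present in both groups and no group without it was analysed here, so each difference is that between NP-G2-044 added to IL-1β and IL-1β alone. The methods call the libraries of a group biological replicates, and the labels do not say whether they came from separate cultures, so p-values measure the spread between these samples.

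Integrins are heterodimers of an α and a β chain that span the plasma membrane and bind extracellular matrix proteins such as fibronectin, collagens and laminins. Inside the cell, talin and kindlin bind the β tail, vinculin, filamins and tensins link it to actin, and LIM domain proteins, kinases and adaptors assemble on this core. In cartilage, integrins join chondrocytes to their pericellular matrix, and the collagen receptor with the α10 chain is known from chondrocytes.

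Library totals were 16615831 to 16878162 reads in IL and 17529836 to 17735850 in ILN. Levels are given in TPM (transcript abundance scaled to gene length and library size) as per-library values or mean ± SD (n = 3). Log2 fold changes are ILN over IL from read counts, with adjusted p from the quasi-likelihood test of edgeR over 11983 genes tested. At an adjusted p below 0.05, 80.0% of all tested genes differed between the groups, 40.2% being higher and 39.8% lower in ILN, so such a call alone says little about a member. The stricter cutoffs, which also ask for a log2 fold change above 1 in size, were passed by 16.6% of tested genes, 6.48% higher and 10.1% lower. RNA came from bulk cells, in which fewer cells of a type and less RNA per cell cannot be told apart.

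The cells carried few defining cartilage transcripts. Of 15 chondrocyte markers, 10 were listed and 5 were tested, and their summed level was 22.2 to 23.1 TPM in IL and 17.3 to 18.0 TPM in ILN. Col2a1, the main cartilage collagen gene, was at 0.217 ± 0.0208 TPM in IL and 0.04 ± 0.02 TPM in ILN. Sox5 fell from 10.3 to 2.27 TPM (log2 fold change -2.49) and Col11a2 from 5.01 to 3.43 TPM (-0.56). Sox9, the chondrogenic transcription factor, was the single tested marker called higher, from 6.44 ± 0.675 to 11.4 ± 0.0569 TPM. Without Sox9, the other 9 listed markers summed to 15.9 to 16.8 TPM in IL and 5.96 to 6.68 TPM in ILN. All 10 fibroblast markers were listed, and their sum, mostly Col1a2, was 1139 to 1185 TPM in IL and 357 to 373 TPM in ILN. Of the 6 tested, 5 were lower and Pdgfra, for a PDGF receptor, was higher in ILN (2.36 to 8.69 TPM, log2 fold change 1.91). Endothelial markers summed to 0.05 to 0.28 TPM in IL and 0.40 to 0.55 TPM in ILN, and epithelial markers to at most 1.35 TPM in IL and 0.08 TPM in ILN. The part of these shifts in the results on integrins was not tested.

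Of the 42 members tested, 39 (92.9%) differed at an adjusted p below 0.05, 16 of them upregulated and 23 downregulated in ILN, beside 80.0% of all genes. Both cutoffs were passed by 13 members (31.0%, beside 16.6% of all genes), 5 of them upregulated and 8 downregulated. The upregulated genes were Itgb7, Itgb3, Fyn, Zyx and Itga7, and the downregulated genes were Itga11, Nedd9, Itga3, Itgb2, Tns3, Cav1, Tns1 and Itga2b. The median log2 fold change of the tested members was -0.27 and that of all tested genes was 0.00, and the median size of the change was 0.61 against 0.39. Itga11 and Itgb3 passed the read filter only through the group in which they were higher and therefore had to differ. Without them, 11 of 40 members (27.5%) passed both cutoffs. TPM values of the groups did not overlap for 40 of the 42 tested members, beside 79.4% of all tested genes, and they overlapped for Itga10 and Pdlim5.

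**Figure D1:**
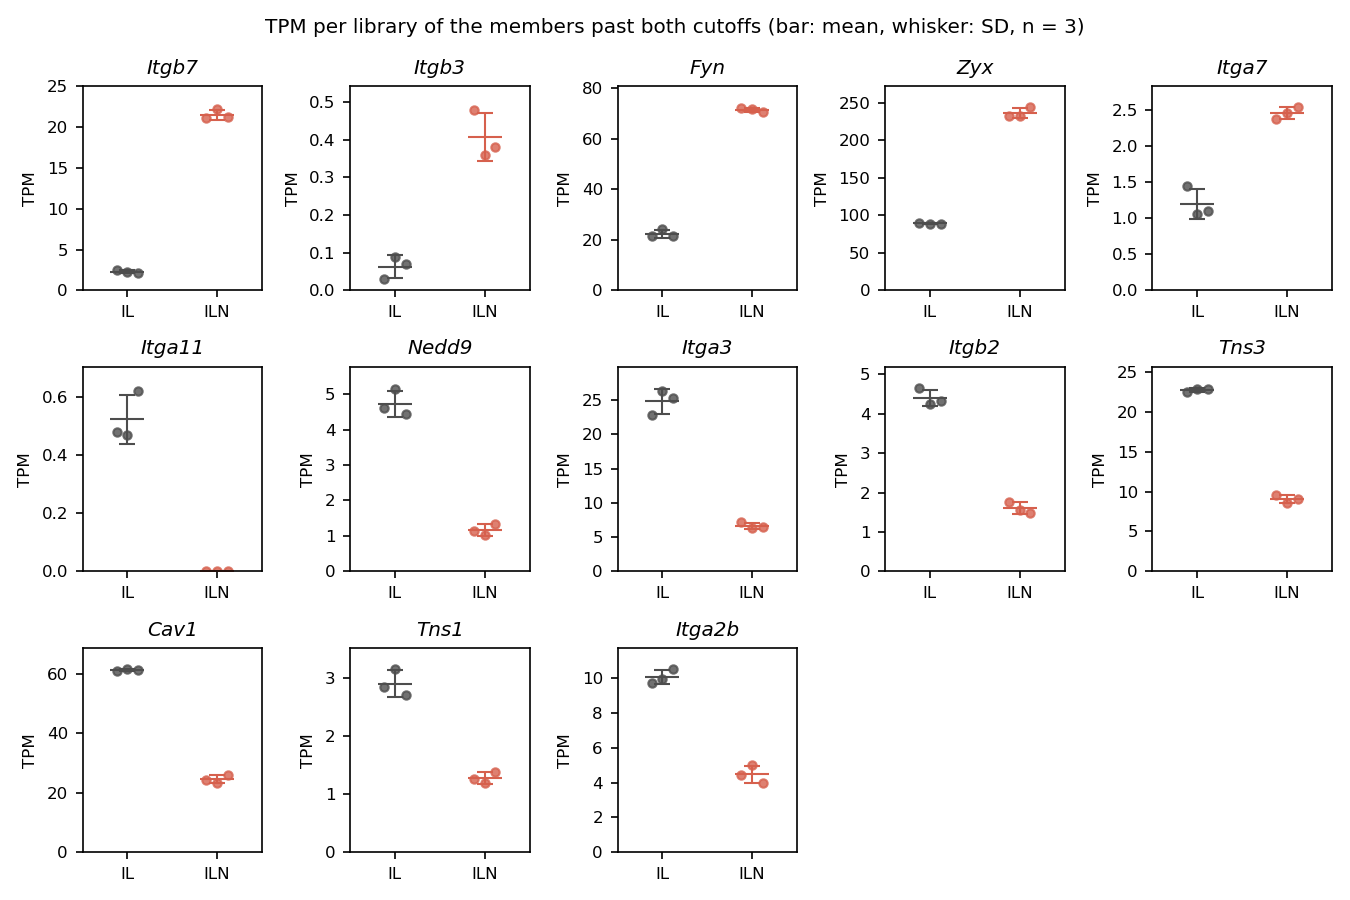
TPM, on linear axes from 0, of the 13 members past both cutoffs, with 1 point per library (3 IL and 3 ILN), a bar at each group mean and whiskers of 1 SD. The groups are separated in each panel, and the 3 ILN libraries of Itga11 are at 0 TPM.

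Past both cutoffs were 7 of the 13 integrin genes tested (53.8%) and 6 of the 29 focal adhesion proteins (20.7%), beside 16.6% of all genes. Without Itga11 and Itgb3 the integrin share was 5 of 11 (45.5%), and the difference between integrins and focal adhesion proteins was not tested. The integrin median was -0.43 and that of the focal adhesion proteins was -0.12 on the log2 scale. Among the 13 tested integrins, 4 were upregulated and 8 downregulated at an adjusted p below 0.05. Among the 29 other proteins these numbers were 12 and 15, beside 40.2% and 39.8% of all genes.

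Promoter sequences were read from RefSeq (GRCm38.p6), from 250 bases before to 50 bases after each transcription start, for 40 of the 50 members with 52 windows. Letters of 3 elements were searched on both strands, because these elements are known to be bound by factors that respond to actin and adhesion. They were GGAATG for TEAD factors, TGANTCA for AP-1 and the CArG box of serum response factor, and no hits overlapped within a window. GGAATG was found in 6 member windows (11.5%) and in 14.7% of 32851 promoter windows of the same length. The windows of Flnc overlap, and the same GGAATG site was counted in both. TGANTCA was found in 4 (7.69%) and in 7.81%, and the CArG box in 6 (11.5%) and in 1.63%. The windows with TGANTCA belonged to Cav2, Itga3, Itga9 and Zyx, of which Zyx rose and Itga3 fell past both cutoffs. The windows with a CArG box belonged to Fermt2, Fhl1, Fhl2 with 2 windows, Itgb6 and Vcl. Their log2 fold changes were -0.01, 0.88, -0.90, none for the undetected Itgb6, and -0.59, so no gene with a CArG box in its window passed both cutoffs. Itga7, Itgb2 and Itgb3, which passed both cutoffs, had no window and were not searched. In the sequences printed here, 5′ to 3′ on the strand of the gene, capitals mark the matched letters. Vcl is shown for a CArG box and a GGAATG, Fhl2 for a CArG box close to the start, Zyx for its TGANTCA, and Itgb7 as the member with the largest rise, with none of the 3 elements in this window. A match describes letters and is not evidence of binding.
Vcl, chr14:20929148-20929447, plus strand: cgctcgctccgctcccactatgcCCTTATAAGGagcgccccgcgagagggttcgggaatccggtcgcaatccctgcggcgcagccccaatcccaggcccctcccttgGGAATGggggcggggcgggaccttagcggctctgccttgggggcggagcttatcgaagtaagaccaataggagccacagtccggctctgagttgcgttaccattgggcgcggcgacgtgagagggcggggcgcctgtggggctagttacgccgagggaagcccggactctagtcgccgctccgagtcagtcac
Fhl2, chr1:43163912-43164211, minus strand: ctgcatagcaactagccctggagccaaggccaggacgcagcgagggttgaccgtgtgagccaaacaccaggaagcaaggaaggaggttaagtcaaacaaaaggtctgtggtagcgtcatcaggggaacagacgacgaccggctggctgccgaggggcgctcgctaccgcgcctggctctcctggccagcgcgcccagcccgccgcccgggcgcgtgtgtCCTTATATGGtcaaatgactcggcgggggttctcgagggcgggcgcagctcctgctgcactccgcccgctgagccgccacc
Zyx, chr6:42349578-42349877, plus strand: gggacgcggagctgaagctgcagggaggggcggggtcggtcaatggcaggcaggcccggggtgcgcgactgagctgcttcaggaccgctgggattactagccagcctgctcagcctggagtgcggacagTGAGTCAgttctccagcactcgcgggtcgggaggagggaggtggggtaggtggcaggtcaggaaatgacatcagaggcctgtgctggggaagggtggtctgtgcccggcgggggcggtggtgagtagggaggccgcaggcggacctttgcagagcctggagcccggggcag
Itgb7, chr15:102231886-102232185, minus strand: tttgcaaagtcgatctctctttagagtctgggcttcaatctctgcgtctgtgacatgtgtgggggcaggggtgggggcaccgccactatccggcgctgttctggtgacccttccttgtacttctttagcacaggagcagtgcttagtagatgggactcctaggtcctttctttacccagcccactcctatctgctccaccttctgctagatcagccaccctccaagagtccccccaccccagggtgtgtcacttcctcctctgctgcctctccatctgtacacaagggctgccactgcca

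Among the α chains that bind collagen, Itga11 (chr9:62677855-62783979, genome build GRCm38) was detected in IL alone. Itga11 encodes the α11 chain, a receptor for fibrillar collagen in mesenchymal cells. Its levels in IL were 0.48, 0.47 and 0.62 TPM, from 24, 23 and 31 reads, and no read was counted in any of the 3 ILN libraries. Against a floor of 3 reads over the ILN group, Itga11 was at least 27.4-fold lower. No p is given as support, since Itga11 entered the test only through its reads in IL. Itga10, the α10 chain of chondrocytes, gave 43 reads in IL and 32 in ILN, with overlapping groups, a log2 fold change of -0.49 ± 0.34 (SE) and an adjusted p of 0.178. The Itga10 value is uncertain, since 1739 of its 5044 exon bases are shared with Gm42957 on the same strand. Itga1, for the α1 chain, fell below the filter with 45 reads in IL and 16 in ILN, a ratio of 2.96 for IL over ILN (95% interval 1.64 to 5.61, counting error only). Itga1 shares 451 of its 10967 exon bases with Gm49395 on the same strand. Itga2, for the α2 chain, had 0 and 2 reads, which allows no comparison.

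The laminin-binding α chains did not move together. Itga3 (chr11:95044475-95076844), which encodes the α3 chain, had 22.8, 26.3 and 25.3 TPM in IL and 7.20, 6.32 and 6.49 TPM in ILN. Each IL library was well above each ILN library, a 3.65-fold downregulation (log2 fold change -1.87 ± 0.0547 SE, adjusted p = 1.67e-33). Itga7 (chr10:128933421-128958286), whose α7 chain is best known from muscle, had 1.44, 1.05 and 1.10 TPM in IL and 2.37, 2.45 and 2.54 TPM in ILN. The groups were apart at this low level, and the log2 fold change of 1.04 ± 0.133 (SE, adjusted p = 7.33e-10) lay just past the cutoff. It was 0.94 without IL replicate 2 and 1.00, just under the cutoff, without IL replicate 3. Of 8 muscle markers 7 were listed, with a sum of 36.3 to 41.6 TPM in IL and 28.4 to 30.4 TPM in ILN that was almost all Smtn, and the remaining 6 genes summed to at most 0.99 TPM. Itga6, the α6 chain, was also higher in ILN, with a log2 fold change of 0.90.

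The RGD-binding chains, which recognise the arginine-glycine-aspartate motif of fibronectin and vitronectin, included the most abundant α genes, Itga5 and Itgav. All 3 tested were downregulated at an adjusted p below 0.05, as were 39.8% of all genes. Itga5, for the fibronectin receptor α5 chain, had 46.4, 44.5 and 46.4 TPM in IL and 38.3, 38.1 and 37.3 TPM in ILN. The decrease was small beside the spread across genes but exceeded the spread between libraries (log2 fold change -0.24 ± 0.0348 SE, adjusted p = 1.82e-08). Itgav, for the αv chain shared by several vitronectin receptors, had 27.0, 30.9 and 29.4 TPM in IL and 22.1, 20.9 and 20.5 TPM in ILN, with no overlap (-0.43 ± 0.0378 SE, adjusted p = 5.28e-14). Itga2b (chr11:102453297-102469883), the αIIb chain of the platelet fibrinogen receptor, had 9.71, 9.94 and 10.5 TPM in IL and 4.45, 4.98 and 3.96 TPM in ILN. All IL libraries were above all ILN libraries, and the change passed both cutoffs (-1.14 ± 0.0851 SE, adjusted p = 1.43e-17). Itga8, the remaining chain of this class, had 4 reads in IL and 1 in ILN.

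The α4 and α9 chains, which bind VCAM-1 and the CS1 region of fibronectin or tenascin and osteopontin, were close to absent. Itga9 had 13 reads in IL and 20 in ILN (ratio of ILN over IL 1.46, 95% interval 0.692 to 3.20), and Itga4 had 5 and 10 reads (1.90, 0.592 to 7.09). Both intervals include equal levels, so no difference was detectable at this depth.

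The most abundant β chain, Itgb1, was only mildly lower in ILN. Its β1 protein pairs with most of the α chains above. Itgb1 had 256, 268 and 267 TPM in IL and 209.7, 209 and 208 TPM in ILN, without overlap (log2 fold change -0.30 ± 0.0266 SE, adjusted p = 6.14e-15). Itgb5, whose β5 chain pairs with αv, had 121, 125 and 119 TPM in IL and 75.6, 74.1 and 75.0 TPM in ILN. It was the second most abundant β gene and decreased further than Itgb1 (-0.69 ± 0.0304 SE, adjusted p = 5.47e-27).

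Of the less abundant β genes, Itgb7, Itgb2 and Itgb3 were tested, and each passed both cutoffs. Itgb7 (chr15:102215994-102233405) encodes the β7 chain, which is known from lymphocytes, where it pairs with α4 or αE. Its levels were 2.52, 2.23 and 2.12 TPM in IL and 21.1, 22.2 and 21.2 TPM in ILN. Every ILN library was far above every IL library, a 9.49-fold upregulation from 2.29 ± 0.207 to 21.5 ± 0.606 TPM (log2 fold change 3.25 ± 0.0922 SE, adjusted p = 9.58e-36), the largest rise among the tested members. The genes of its known partner chains were barely detected, with 5 and 10 reads for Itga4 and 32 and 11 reads for Itgae in IL and ILN.

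Itgb2 (chr10:77530329-77565708), the β2 chain of leukocyte integrins, went the other way. It had 4.64, 4.24 and 4.31 TPM in IL and 1.77, 1.56 and 1.48 TPM in ILN, with no overlap (log2 fold change -1.44 ± 0.14 SE, adjusted p = 1.74e-13). Its partner genes gave 0 and 1 reads for Itgal, 2 and 0 for Itgam and 5 and 4 for Itgax in IL and ILN. Of 11 leukocyte markers 9 were listed, and the pan-leukocyte gene Ptprc was at 0 in all 6 libraries. The marker sum was 11.4 to 14.7 TPM in IL and 124 to 135 TPM in ILN, nearly all from Cd68, a lysosomal glycoprotein gene (12.4 ± 1.68 to 129.9 ± 5.48 TPM). The other 8 listed markers summed to 0.70 to 0.87 TPM in IL and 0.28 to 0.40 TPM in ILN.

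Itgb3 (chr11:104608000-104670476), the β3 chain that pairs with αv or αIIb, was at a trace level. It had 2, 5 and 4 reads in IL and 30, 23 and 24 reads in ILN, or 0.03 to 0.09 TPM and 0.36 to 0.48 TPM. The ILN libraries were all higher, with a ratio of pooled reads of 6.65 (95% interval 3.52 to 13.9, counting error only) and a log2 fold change of 2.70 ± 0.374 (SE). As for Itga11, no p is given, since Itgb3 entered the test only through its reads in ILN. Itgb8 had 6 reads in IL and 1 in ILN, Itgb4 had 3 and 1, and Itgb6 had none in any library.

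The summed TPM of the 13 α genes went from 113 ± 3.09 in IL to 75.3 ± 1.98 in ILN, 0.664 of the IL level, and that of the 8 β genes from 392 ± 7.82 to 307 ± 1.28, 0.783 of the IL level. Within the α sum, Itga3 made up 21.9% in IL and 8.86% in ILN, while Itga5 made up 40.5% and 50.3%. Itgav had 25.7% and 28.1%, and Itga2b had 8.87% and 5.93%. Within the β sum, Itgb1 held 67.2% and 68.0%, Itgb5 held 31.1% and 24.4%, and Itgb7 held 0.584% and 6.99%. Itga5 and Itgav therefore took a larger share of the α sum in ILN although both were lower in TPM.

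**Figure D2:**
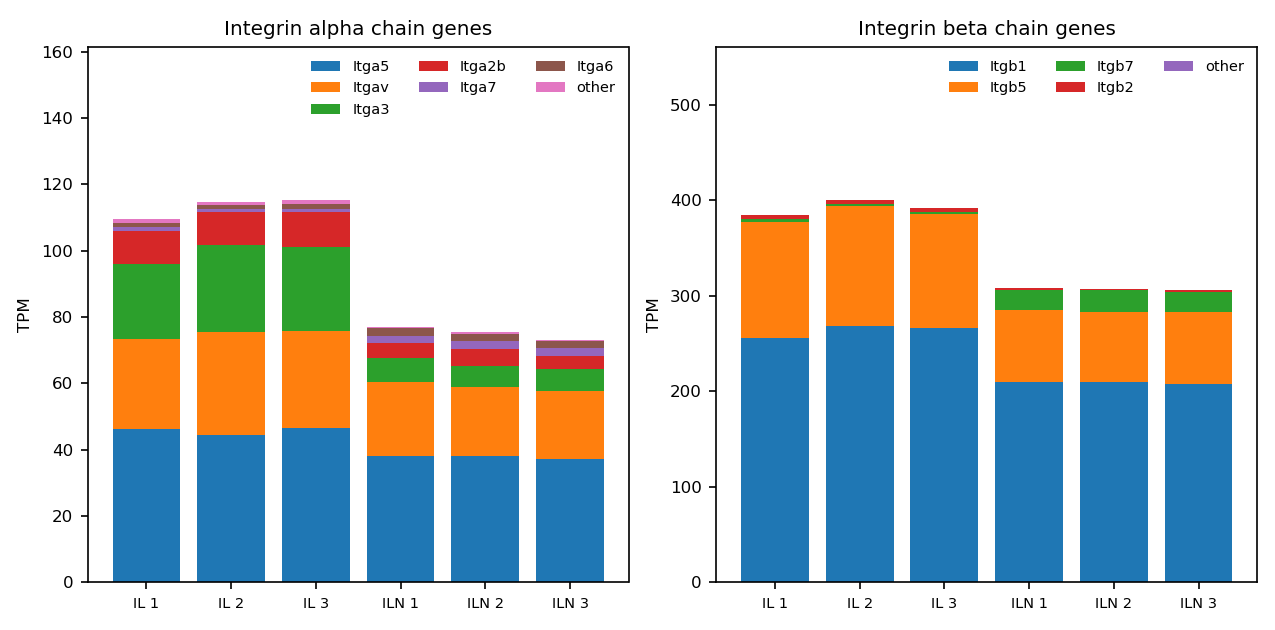
Stacked TPM of the integrin α genes (left) and β genes (right) in each of the 3 IL and 3 ILN libraries. The α bars stand at 109.7 to 115 TPM in IL and 73.2 to 77.1 TPM in ILN, with the Itga3 segment smaller and the Itgb7 segment larger in every ILN library.

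At the first layer inside the cell, talins, kindlin-2 and vinculin, none of the 4 genes rose. Tln1, for the talin that activates integrins, had 77.7, 82.4 and 80.5 TPM in IL and 71.5, 70.5 and 66.6 TPM in ILN, a small separation without overlap (log2 fold change -0.17, adjusted p = 3.28e-07). Tln2, its less abundant paralog, changed by -0.94 and Vcl, for the talin- and actin-binding protein vinculin, by -0.59. Fermt2, for kindlin-2, gave a log2 fold change of -0.01 ± 0.0393 (SE) and an adjusted p of 0.76. Vcl was the single member whose estimated counts were not whole in all 6 libraries. Its exons share 2090 of 5267 bases with Ap3m1 on the opposite strand, which went from 28.1 to 43.6 TPM, and no source used here says whether reads were counted by strand, so the value of Vcl is uncertain.

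The ILK, PINCH and parvin complex, which binds the β tail and recruits actin, split. Lims1, for PINCH-1, had 88.5, 99.6 and 97.7 TPM in IL and 125, 119.9 and 124 TPM in ILN, with all ILN libraries higher (log2 fold change 0.40, adjusted p = 1.73e-16). Parva, for α-parvin, changed by -0.71 and Ilk, for the pseudokinase at the centre of the complex, by -0.49. The Ilk value is uncertain, since 1533 of its 1877 exon bases lie opposite Taf10, which went from 162 to 229 TPM.

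Filamins crosslink actin and tensins bind the β tail and actin. At an adjusted p below 0.05, 4 of these 5 genes were downregulated, as were 39.8% of all genes. Flna, for filamin A, had 242, 268 and 267 TPM in IL and 182, 175 and 169 TPM in ILN, with no overlap (log2 fold change -0.53, adjusted p = 1.62e-19). Flnc, for the filamin of striated muscle, was higher by 0.36 on the log2 scale. Tns3 (chr11:8431652-8664758) had 22.4, 22.8 and 22.9 TPM in IL and 9.52, 8.51 and 9.12 TPM in ILN (-1.30 ± 0.0438 SE, adjusted p = 2.43e-32). Tns1 (chr1:73910232-74124548) had 2.85, 3.16 and 2.71 TPM in IL and 1.26, 1.19 and 1.39 TPM in ILN (-1.15 ± 0.0923 SE, adjusted p = 2.24e-16). With Tns2 at -0.70, all 3 tensin genes were lower in ILN.

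Of the 7 LIM domain proteins, 5 were upregulated and 2 downregulated at an adjusted p below 0.05, where 40.2% of all genes were higher, and 1 (14.3%) passed both cutoffs, beside 16.6% of all genes. Zyx (chr6:42349511-42360213) encodes zyxin, which is recruited to strained actin at focal adhesions and repairs stress fibers. It had 90.4, 88.1 and 89.0 TPM in IL and 232, 232 and 244 TPM in ILN. Zyx was thus 2.76-fold higher in ILN, with narrow spread in both groups (log2 fold change 1.46 ± 0.0313 SE, adjusted p = 2.05e-41). Pxn, for the scaffold paxillin, Tgfb1i1, for its relative Hic-5, and Pdlim5 were higher by 0.28, 0.27 and 0.27, although Tgfb1i1 missed the threshold in DESeq2 (adjusted p = 0.0682). The FHL proteins, built of LIM domains alone, moved apart, with Fhl1 at 0.88 and Fhl2 at -0.90, and Pdlim7 was at -0.64. Their levels were unlike, Fhl1 going from 0.913 to 1.56 TPM and Fhl2 from 44.0 to 23.0 TPM. Both FHL genes have a CArG box in a promoter window. Fhl1 reached 1.03, past the cutoff, without IL replicate 3.

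All 3 kinases were upregulated at an adjusted p below 0.05, as were 40.2% of all genes, and Fyn alone passed both cutoffs. Fyn (chr10:39369743-39565381), a Src family kinase that acts with focal adhesion kinase, had 21.4, 24.2 and 21.7 TPM in IL and 72.2, 71.8 and 70.5 TPM in ILN. The ILN libraries were more tightly grouped than the IL libraries and 3.23-fold higher (log2 fold change 1.69 ± 0.0394 SE, adjusted p = 9.5e-40). Ptk2, for focal adhesion kinase itself, had 47.1, 45.9 and 47.4 TPM in IL and 66.7, 63.7 and 64.4 TPM in ILN. It was higher in every ILN library (0.48, adjusted p = 3.12e-19), and Src was higher by 0.21.

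The Cas family adaptors moved in opposite directions. Nedd9 (chr13:41309916-41487362) encodes a Cas family scaffold that is phosphorylated by the kinases above. It had 4.60, 5.13 and 4.43 TPM in IL and 1.13, 1.02 and 1.35 TPM in ILN, a 3.95-fold downregulation without overlap (log2 fold change -1.98 ± 0.12 SE, adjusted p = 3.03e-21). Bcar1, for the more abundant p130Cas, was higher by 0.11, a call that limma on log2 TPM did not give (adjusted p = 0.0769 with 0.1 added and 0.0772 with 1 added). Git1, for a scaffold that brings the PIX and PAK proteins to adhesions, had 106, 113 and 113 TPM in IL and 160.4, 160.3 and 156 TPM in ILN, all ILN libraries being higher (0.55, adjusted p = 4.86e-24). Crk changed by -0.12, and Crkl gave -0.06 with an adjusted p of 0.105.

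Both caveolins, the coat proteins of membrane pits that regulate integrin turnover, were downregulated at an adjusted p below 0.05, as were 39.8% of all genes. Cav1 (chr6:17306335-17341328) had 60.9, 61.6 and 61.4 TPM in IL and 24.5, 23.4 and 26.0 TPM in ILN. The IL libraries were within 1 TPM of each other, and the decrease passed both cutoffs (log2 fold change -1.27 ± 0.046 SE, adjusted p = 6.55e-31). Cav2 changed by -0.35.

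**Figure D3:**
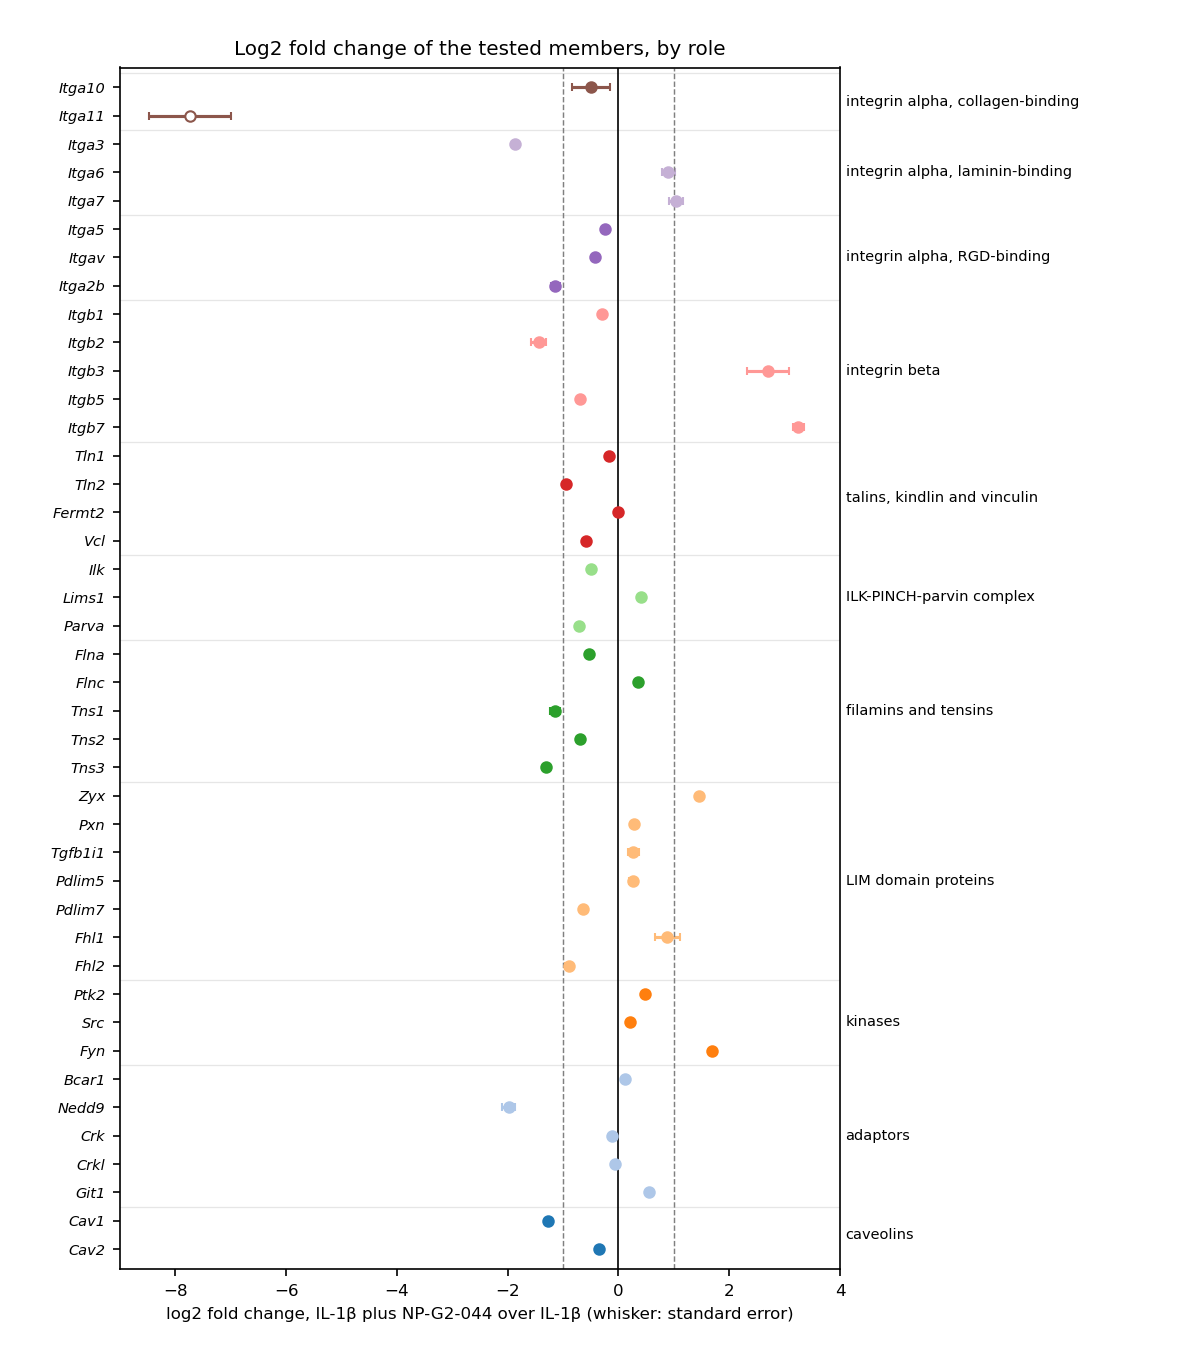
Log2 fold change of ILN over IL for the 42 tested members by role, with standard errors as whiskers and dashed lines at -1 and 1. The hollow point is Itga11, whose fitted value and whisker depend on the prior count because no read was seen in ILN. The largest rise is that of Itgb7 at 3.25.

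For 6 pairs of paralogs, chosen after their values were seen, ratios of TPM within each library are given as a description. An exact permutation test gave p = 0.1 for every pair. That is the lowest p it can give with 3 libraries per group, so it decides nothing. The ratio of Fyn to Src was 0.761 to 0.910 in IL and 2.36 to 2.41 in ILN, and that of Parvb, for β-parvin, to Parva was 0.250 to 0.270 and 1.01 to 1.15. The ratio of Flnc to Flna was 0.146 in IL and 0.270 in ILN, and that of Cav2 to Cav1 was 0.405 and 0.771. In the opposite direction, Nedd9 to Bcar1 went from 0.0548 to 0.0129 and Tln2 to Tln1 from 0.0858 to 0.0501.

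Genes around the members were summarised from hand-written lists. Among extracellular ligands of integrins, 26 of 31 tested genes were downregulated and 3 upregulated at an adjusted p below 0.05. Over all genes these shares were 39.8% and 40.2%. Past both cutoffs, 18 were lower and 1 was higher, beside 10.1% and 6.48% of all genes. Some of the lower ones had few reads in ILN, such as Npnt (39 reads in IL and 4 in ILN) and Nid2 (333 and 27). Such genes could pass the read filter through IL alone, and the counts were not recomputed without them. The median log2 fold change was -1.48 beside 0.00 over all genes. The largest decreases were those of the thrombospondin genes Thbs1, from 191 to 7.47 TPM (-4.64), and Thbs2, from 103 to 6.05 TPM (-4.06). The elastic fiber gene Fbln5 rose from 4.84 to 17.2 TPM (1.89), and Adam15, for a disintegrin, from 26.1 to 34.5 TPM (0.44). The collagen genes Col1a1, Col1a2 and Col3a1 are on this list and also among the fibroblast markers. Fn1, for fibronectin, chosen after its value was seen, was higher by 0.24 on the log2 scale, from 360.5 to 417 TPM.

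Of the other linker, scaffold and LIM proteins of adhesions, 32 of 40 were tested. Of these, 9 were upregulated and 18 downregulated, beside 40.2% and 39.8% of all genes. Past both cutoffs were 9 (28.1%, beside 16.6% of all genes), 3 higher and 6 lower, and the median was -0.27. Lims2, among the 3 higher, had 20 reads in IL and 113 in ILN and could pass the read filter through ILN alone. Palld, for the actin-bundling scaffold palladin, fell from 73.6 to 13.5 TPM (-2.47), and Sdc4, for the fibronectin co-receptor syndecan-4, from 61.6 to 18.7 TPM (-1.69). Parvb rose from 9.89 to 24.6 TPM (1.35) and Pdlim1, for a LIM protein of actin bundles, from 57.9 to 95.8 TPM (0.75).

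The signalling proteins downstream of integrins stood nearer to the background. Of 38 tested, 17 were upregulated and 15 downregulated, beside 40.2% and 39.8% of all genes. Both cutoffs were passed by 5 (13.2%), beside 16.6% of all genes, and the median was 0.00. Pik3r1, for the regulatory subunit of PI3 kinase, fell from 160.5 to 29.1 TPM (-2.43), and the small GTPase gene Rhob rose from 33.1 to 103.5 TPM (1.68). The collagen receptor kinases went apart, Ddr1 from 34.3 to 17.8 TPM (-0.92) and Ddr2 from 36.9 to 74.1 TPM (1.04). The list's largest changes were in genes below 10 TPM on average, named after their values were seen. Elmo1 rose from 0.40 to 15.9 TPM (5.34), and the kinase gene Ptk2b fell from 8.44 to 1.35 TPM (-2.61).

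Among regulators of integrin activation and trafficking, 13 of 26 tested genes were upregulated and 10 downregulated, beside 40.2% and 39.8% of all genes. Past both cutoffs were 5 each way (38.5% in all, beside 16.6% of all genes), and the median was 0.11. Slc3a2, for the integrin-binding heavy chain of amino acid transporters, rose from 164 to 724 TPM (2.16), and Hax1, whose protein binds αvβ6, from 161 to 412 TPM (1.38). Dab2, for an endocytic adaptor of integrins, fell from 18.1 to 3.71 TPM (-2.26) and Cd81, for a tetraspanin, from 145.5 to 56.3 TPM (-1.34).

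**Figure D4:**
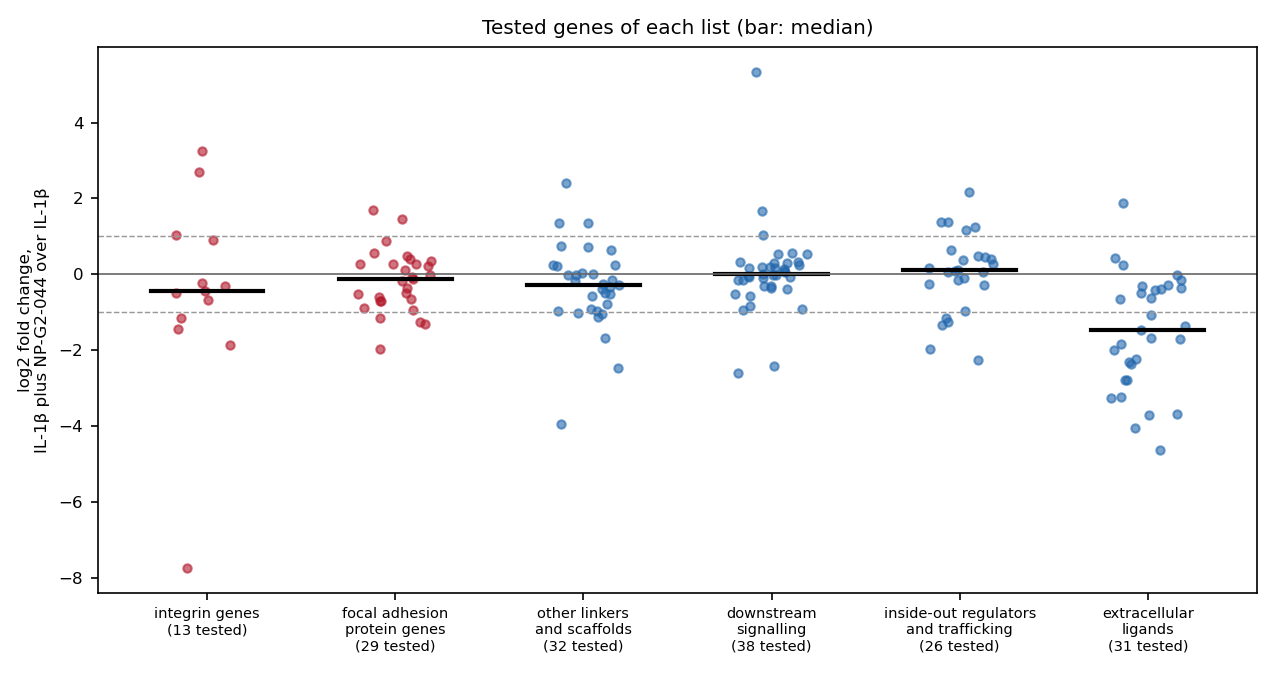
Log2 fold change of ILN over IL (vertical axis) for each tested gene of the integrins, the focal adhesion proteins and the 4 lists around them, with medians as bars and dashed lines at -1 and 1. The median is -0.43 for integrins, -0.12 for focal adhesion proteins and -1.48 for extracellular ligands.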

How the data were processed

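RNA of 3 IL and 3 ILN samples was sequenced. The submitters' processing notes name cutadapt, HISAT2 2.0 and StringTie with build mm10. No source used here gives the strand setting or the annotation. For each gene the authors deposited an expected count, estimated and not normalized, of which 10.17% to 11.06% per library were not whole. The authors also deposited TPM and FPKM per library, of which TPM was used for levels and FPKM for nothing, and group averages, which were not used.

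Counts were rounded, filtered with filterByExpr (minimum count 10), normalized with TMM and tested with glmQLFit and glmQLFTest of edgeR 4.0.16 in R 4.3.3, with the group as the single term. Adjustment followed Benjamini and Hochberg over 11983 genes. The SE of a log2 fold change was computed as its size divided by the square root of the F statistic. The common biological coefficient of variation was 2.33%. On counts simulated with the same dispersion for every gene, 96% of 100 genes changed by 0.5 and 97% of 99 changed by 1 (log2) were recovered. There were 3 false calls among 11907 genes tested. In the real data 80.0% of tested genes differed, so these rates cannot be carried over to this comparison. Ratios of pooled reads have exact 95% binomial intervals, and a count of 0 was set to 3 reads over the group.

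Per-library values were given for members past both cutoffs, for the 3 α and 3 β genes with the highest mean TPM and for the member with the highest mean TPM in each other role. Members with an adjusted p of at least 0.05 were also named. From each other list came the 2 largest rises and 2 largest falls among genes with an adjusted p below 0.05 and 10 TPM or more on average. The members, lists and motifs were chosen with earlier results of these data known. Gene positions and promoters are from RefSeq (GRCm38.p6) and exon overlaps from GENCODE vM21. The alternatives were DESeq2 1.42.0, its size factors, library size alone, limma 3.58.1 on log2(TPM + 1) and log2(TPM + 0.1), 2 other filters, the replicate number as a block, and each library left out in turn.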

Additional observations from a re-analysis of the deposited data

How the results depend on the processing

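The counts of members and their median kept their direction under all 14 alternatives, the median ranging from -0.35 to -0.23. Instead of 5 upregulated members past both cutoffs, 3 were found when genes had to reach 10 CPM in 3 or more libraries, which left 34 members to test, and 3 with limma on log2(TPM + 1). With log2(TPM + 1), Itga7 (0.66), Itgb3 (0.40), Itga11 (-0.61) and Tns1 (-0.78) lay inside the cutoff, since the added 1 shrinks the change of genes near 1 TPM. With log2(TPM + 0.1), Itga7 was at 0.99. Tgfb1i1 had an adjusted p of 0.0682 in DESeq2, Bcar1 of 0.0769 and 0.0772 in limma with 0.1 and 1 added, and Crkl of 0.0186 with the 10 CPM filter. No member changed sign in a call, and 576 of the per-gene comparisons stayed on the same side of the threshold, 3 became weaker and 1 stronger. With the replicate number as a block, 16 members were upregulated and 23 downregulated, with 5 and 8 past both cutoffs, as without it. Deviations of same-numbered libraries correlated at -0.0934, -0.0236 and 0.0259, and those of differently numbered libraries at -0.107 to 0.129. Differences between libraries of a group were not far above counting error, so this check cannot exclude a pairing. Depth limits the 8 untested integrin genes.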
